A study of Mus musculus with 6 samples.

Results

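The 9 genes described here set the chloride gradient of a cell or let chloride cross its membranes. They are the cotransporter genes Slc12a2, Slc12a4, Slc12a5 and Slc12a7 and the channel and exchanger genes Ano1, Cftr, Clcn2, Clcn3 and Clcn4. They were chosen by gene symbol, through the gene identifiers of the count table. The choice was not made by their values, but earlier results of these data were known. The 9 genes are among 54281 in that table. The table comes from GLUTag cells, a mouse enteroendocrine line that secretes the gut hormone GLP-1, and every library was made from this 1 line under 1 condition, for which the labels name no treatment. Cells stood for 48 h on Matrigel in DMEM with 1 g/L glucose, GlutaMAX and 10% heat-inactivated FBS. There were 3 wells on plate 1, at passage 23, and 3 wells on plate 2, at passage 27. Plate and passage cannot be told apart, wells of a plate share a culture, and p-values therefore measure the spread between wells, which may be technical. The kit reads polyadenylated transcripts only at their 3′ ends. Longer genes therefore gain no counts from their length, and levels are given as CPM, the count divided by the total of its library, per M counts.

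The chloride gradient decides whether opening a GABA-A or glycine receptor depolarises or hyperpolarises a cell. NKCC1, the product of Slc12a2, brings sodium, potassium and chloride into the cell together, whereas the potassium chloride cotransporters KCC1, KCC2 and KCC4, the products of Slc12a4, Slc12a5 and Slc12a7, carry chloride out. Chloride channels such as CFTR, which opens after cyclic AMP has activated protein kinase A, and the calcium-activated channel of Ano1 then let chloride flow down its gradient. In mature neurons KCC2 keeps intracellular chloride low, and in secretory epithelia NKCC1 loads the cell with the chloride that leaves through apical channels. Transcript levels do not give the activity of these proteins, which also depends on phosphorylation.

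The total lay between 21399987 and 36488198 counts per library. Plate 1 libraries are given as replicates 1, 2 and 3. For plate 2 no column could be tied to 1 replicate number, and its libraries are called lowest, middle and highest after their totals. Where a gene had 0 counts, the limit is 3 counts, equal to 0.0822 CPM in the deepest and 0.14 CPM in the shallowest library. It includes counting error only. Across genes, which are not independent replicates, the lowest Pearson's r between libraries (log2 of CPM + 1) was 0.988 and the highest 0.997, and each pair of libraries differed by more than sampling noise (chi-square per gene of at least 10.2). The middle library of plate 2 stood apart in r: its r with each of the others was 0.988 to 0.991, and that of the other pairs 0.992 to 0.997. By chi-square per gene this was less clear. Within plate 2 its values were 79.3 and 127, against 30.5 for the remaining pair. The largest of all, 189, lay between plate 1 replicate 2 and the highest library of plate 2. The share of counts from the mitochondrial chromosome was 3.98% to 4.85% on plate 1 and 4.62% to 7.27% on plate 2. All 10 enteroendocrine markers were above 3 counts in every library, from Gcg, the GLP-1 precursor gene, at 3420 ± 771 CPM (SD, n = 6) down to Scg2 at 81.2 ± 31.6 CPM (SD, n = 6). The 5 enterocyte markers had means under 1 CPM, with Apob and Fabp2 at 0 counts in all 6 libraries.

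Of the 9 genes, Clcn4, Clcn3 and Slc12a2 were the abundant ones, and together they held 90.0% of the summed level of the 9, which was 173.1 ± 29.5 CPM (SD, n = 6). The cotransporter genes Slc12a5 and Slc12a7 followed at 7.19 and 6.44 CPM. Clcn2 and Slc12a4 had means of 1.9 and 1.35 CPM, Ano1 had 0.377 CPM, and Cftr was found in a single library. In 6 of the 9 genes every library held more than 3 counts, the exceptions being Clcn2, Ano1 and Cftr. Without the middle library of plate 2, which stood apart in r, the means were 55.0 CPM for Clcn4, 51.0 for Clcn3 and 43.8 for Slc12a2. They were 6.99 for Slc12a5, 6.46 for Slc12a7, 2.28 for Clcn2, 1.32 for Slc12a4 and 0.368 for Ano1. Each level is a mean over the cells of a well, and a few cells with many transcripts cannot be told apart from many cells with few. Ranked among the 27044 genes counted at least once, Clcn4 stood at the 88.8th percentile of mean CPM, Slc12a5 at the 64.7th, Ano1 at the 42.3rd and Cftr at the 18.3rd.

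**Figure D1:**
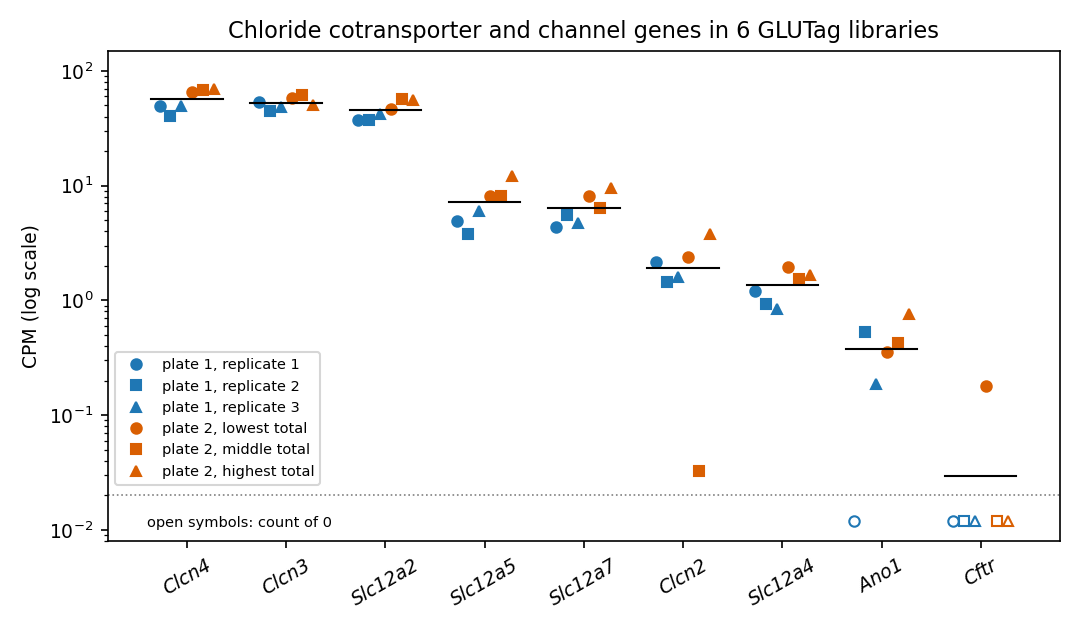
Level of each of the 9 genes in each library, on a logarithmic axis of CPM, with the mean over 6 libraries as a bar, plate 1 in blue and plate 2 in orange. Clcn4, Clcn3 and Slc12a2 lie between 37.0 and 69.6 CPM, and the symbol of Clcn2 far below its group is the middle library of plate 2 (0.0323 CPM).

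Clcn4 (ENSMUSG00000000605, chromosome 7 of GRCm38, 7282309 to 7300851, minus strand) encodes ClC-4, a chloride-proton exchanger of intracellular membranes. On plate 1 it had 49.9, 40.7 and 49.0 CPM in replicates 1, 2 and 3. On plate 2 it had 65.7, 67.7 and 69.6 CPM in the libraries with the lowest, middle and highest total. The plates did not overlap, and 35.2% of all tested genes were likewise higher on plate 2 without overlap in unscaled CPM. The mean of Clcn4 over the 6 libraries was 57.1 ± 12.1 CPM (SD, n = 6), from 921 to 2541 counts per library. Clcn3 (ENSMUSG00000004319, chromosome 8, 60910389 to 60983300, minus strand) encodes ClC-3, a related exchanger of endosomes and of synaptic and secretory vesicles. It had 53.3, 45.1 and 48.4 CPM on plate 1 and 57.8, 61.5 and 50.4 CPM on plate 2, and here the plates overlapped. Its mean was 52.7 ± 6.08 CPM (SD, n = 6), and its coefficient of variation, 11.5%, was the lowest of the 9 genes. Clcn4 was higher than Clcn3 in 4 of 6 libraries, so the order of these genes did not hold beyond their spread: the mean log2 ratio of CPM + 1 was 0.09 ± 0.22 (SD, n = 6; exact two-sided sign-flip permutation test, p = 0.375, adjusted p = 0.3971 over 36 pairs).

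Promoter windows of Clcn4 and Clcn3 are shown because they were the only windows of these genes with the letters TGACGTCA, the palindrome of the cyclic AMP response element, which were searched after the sequences had been seen. The windows are from RefSeq on GRCm38.p6, run 5′ to 3′ on the minus strand from 250 bases before an annotated start to 30 bases into the transcript, and have TGACGTCA in capitals. Clcn4 is at chr7:7299528-7299807 and Clcn3 at chr8:60983282-60983561.
Clcn4: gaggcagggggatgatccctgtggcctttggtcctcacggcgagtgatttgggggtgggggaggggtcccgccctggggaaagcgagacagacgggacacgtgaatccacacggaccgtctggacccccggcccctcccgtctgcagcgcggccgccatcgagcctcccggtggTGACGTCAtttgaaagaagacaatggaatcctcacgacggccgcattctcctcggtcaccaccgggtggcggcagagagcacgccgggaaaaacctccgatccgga
Clcn3: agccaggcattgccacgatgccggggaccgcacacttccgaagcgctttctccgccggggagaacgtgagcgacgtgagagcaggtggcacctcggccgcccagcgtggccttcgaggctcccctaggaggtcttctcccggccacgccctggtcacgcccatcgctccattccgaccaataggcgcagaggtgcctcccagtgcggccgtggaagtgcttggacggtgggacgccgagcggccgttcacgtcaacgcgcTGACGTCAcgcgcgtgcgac
In Clcn4 the first base of the match lies 76 bases before the start, and in Clcn3 it lies 10 bases after it. This RefSeq start of Clcn3 lies upstream of the 5′ boundary of the gene in the GENCODE annotation used here. The search covered 300 bases, to 50 bases after the start, and the letters read the same on both strands. Of the 32851 windows of that length in the RefSeq table, 1.79% held them. Of the 9 genes 8 had a window, 12 windows in all, and Slc12a2 had none. The further windows of Clcn3 and Clcn4 at other starts did not hold these letters. A match describes the sequence and is not a measurement of binding. The 3′ reads do not tell from which start a transcript began.

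Slc12a2 (ENSMUSG00000024597, chromosome 18, 57878678 to 57946821, plus strand), the gene for NKCC1, was the third most abundant of the 9. It had 37.0, 37.2 and 42.5 CPM on plate 1 and 46.9, 56.7 and 55.6 CPM on plate 2, with 843 to 2027 counts per library. Its mean was 46.0 ± 8.68 CPM (SD, n = 6), and each plate 2 library lay above each plate 1 library, although the plates overlapped in TMM-scaled CPM. Such a separation in unscaled CPM was found in 35.2% of all tested genes. Slc12a2 was lower than Clcn4 in counted transcripts in 6 of 6 libraries, with a mean log2 difference of 0.30 ± 0.13 (SD, n = 6; exact permutation test, adjusted p = 0.0375). Against Clcn3 it was lower in 5 of 6, with a log2 difference of 0.21 ± 0.22 (SD, n = 6), and this order did not pass (exact permutation test, p = 0.09375, adjusted p = 0.1023). The kidney cotransporters of the same family, which also bring chloride in, were at low levels. Slc12a1 (NKCC2) had 0.6 ± 0.323 CPM (SD, n = 6), with 6 to 43 counts per library, and Slc12a3 (NCC) had at most 2 counts in any library, under the limit of 3.

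Slc12a5 (ENSMUSG00000017740, chromosome 2, 164960802 to 164999731, plus strand) encodes KCC2, the outward cotransporter best known from neurons. It had 4.88, 3.76 and 6.07 CPM on plate 1 and 8.15, 8.15 and 12.1 CPM on plate 2, from 85 to 442 counts per library. The highest value was in the highest library of plate 2, and the plates did not overlap. Slc12a7 (ENSMUSG00000017756, chromosome 13, 73733094 to 73816754, plus strand) encodes KCC4, an outward cotransporter of epithelia. It had 4.38, 5.52 and 4.77 CPM on plate 1 and 8.08, 6.34 and 9.56 CPM on plate 2, again without overlap. In TMM-scaled CPM its plates overlapped. Of all tested genes, 35.2% were higher on plate 2 without overlap in unscaled CPM. The means were 7.19 ± 2.98 CPM for Slc12a5 and 6.44 ± 2.02 CPM for Slc12a7 (SD, n = 6). These neighbours in the order could not be separated: Slc12a5 was the higher in 5 of 6, with a log2 difference of 0.10 ± 0.30 (SD, n = 6; exact permutation test, p = 0.5). Only in plate 1 replicate 2 was Slc12a7 the higher. The difference was 0.21 without that library, and 0.06 to 0.21 when each library was left out.

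Slc12a4 (ENSMUSG00000017765, chromosome 8, 105943590 to 105966097, minus strand), the gene for the widely expressed KCC1, was the lowest of these outward cotransporters. It had 1.21, 0.928 and 0.841 CPM on plate 1 and 1.96, 1.52 and 1.67 CPM on plate 2, a mean of 1.35 ± 0.438 CPM (SD, n = 6) from 18 to 61 counts per library. Slc12a5 exceeded it in 6 of 6, by a log2 difference of 1.74 ± 0.37, and Slc12a7 did so by 1.64 ± 0.23 (SD, n = 6; exact permutation test, adjusted p = 0.0375 for each). These sizes depend on the pseudocount. With 0.1 and 5 CPM they were 2.28 and 0.91 for Slc12a5, and 2.17 and 0.83 for Slc12a7. An antisense gene, Gm16156, covers the 3′ end of Slc12a4 in the annotation and had 0 counts in all 6 libraries.

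For Slc12a5, RefSeq lists 2 starts, and both windows are shown because the 3′ reads cannot assign the counts to either of them. Both run 5′ to 3′ on the plus strand of GRCm38.p6, the first at chr2:164960596-164960875 and the second at chr2:164967738-164968017, with GC boxes (GGGCGG, or CCGCCC where the box lies on the opposite strand) in capitals.
Slc12a5 start 1: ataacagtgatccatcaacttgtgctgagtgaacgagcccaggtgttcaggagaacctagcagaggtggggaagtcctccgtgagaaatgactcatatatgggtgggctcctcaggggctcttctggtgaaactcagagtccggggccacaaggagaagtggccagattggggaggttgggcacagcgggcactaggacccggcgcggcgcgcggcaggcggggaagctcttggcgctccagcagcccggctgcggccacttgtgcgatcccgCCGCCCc
Slc12a5 start 2: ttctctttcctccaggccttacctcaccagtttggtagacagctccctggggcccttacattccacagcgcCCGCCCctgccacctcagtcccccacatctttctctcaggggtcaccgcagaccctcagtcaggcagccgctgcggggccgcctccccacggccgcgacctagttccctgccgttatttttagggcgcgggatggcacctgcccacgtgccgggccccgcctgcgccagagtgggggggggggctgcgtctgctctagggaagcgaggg
Each window holds 1 GC box. Over the windows of the 9 genes, 11 of 12 held at least 1 GC box, against 35.7% of all windows of this length, in a search chosen after the sequences had been seen. The 12 are not separate, since both windows of Slc12a7 overlap and share boxes. The GC content was 63.7% and 68.3% in the Slc12a5 windows and 52.7% at the median of all windows.

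To set the inward against the outward side, Slc12a2 was divided within each library by the sum of Slc12a4, Slc12a5 and Slc12a7. The sum covers only the outward cotransporters among the 9 genes and does not stand for the whole outward side of the cell. The ratio was 3.53, 3.65 and 3.64 on plate 1 and 2.58, 3.54 and 2.38 on plate 2, so that more transcripts were counted for Slc12a2 than for these outward genes together in 6 of 6 libraries. The mean ratio was 3.22 ± 0.579 (SD, n = 6), and 3.16 ± 0.623 without the middle library of plate 2 (SD, n = 5). On plate 1 it was 3.61 ± 0.0632 and on plate 2 it was 2.83 ± 0.62 (SD, n = 3 each). The middle library of plate 2 lay within the range of plate 1, and the other plate 2 libraries lay below it. The sum itself was 10.5, 10.2 and 11.7 CPM on plate 1 and 18.2, 16.0 and 23.4 CPM on plate 2, without overlap. In unscaled CPM 35.2% of all tested genes were likewise higher on plate 2 without overlap, and the sum was not taken in TMM-scaled CPM. Slc12a5 held 47.2 ± 5.88% of the sum, Slc12a7 43.6 ± 5.39% and Slc12a4 9.21 ± 1.8% (SD, n = 6). Slc12a7 was the larger part in plate 1 replicate 2, at 54.1%, and Slc12a5 in the other 5 libraries. The efficiency of 3′ capture may differ between genes, so the ratio describes counted transcripts and is given with no test.

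**Figure D2:**
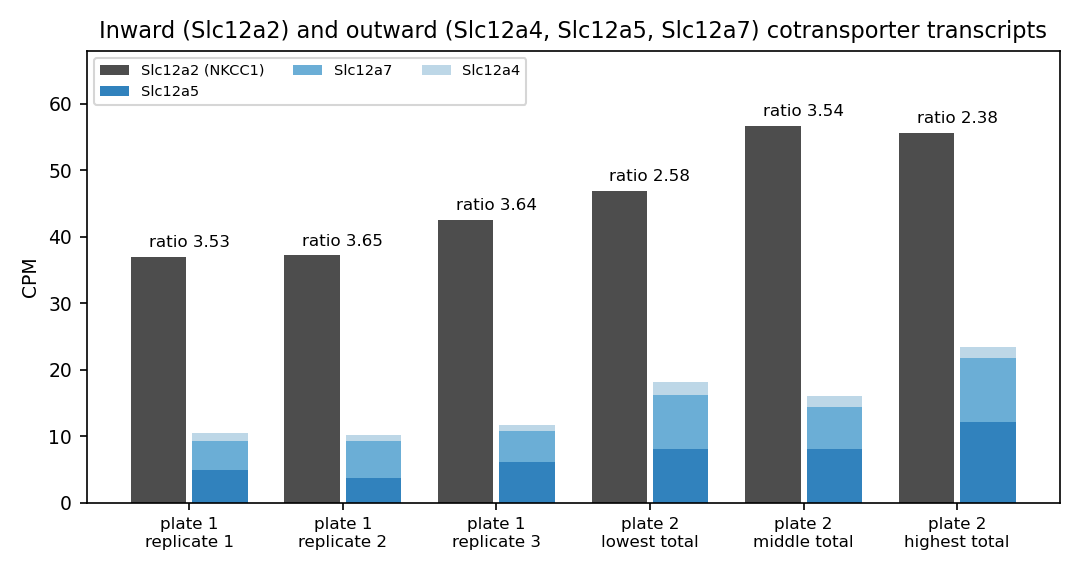
CPM of Slc12a2 (dark bars) beside the stacked CPM of Slc12a5, Slc12a7 and Slc12a4 (blue bars) in each of 6 libraries, with the ratio of both above each pair. Slc12a2 is the taller bar in each library, and the ratio lies between 2.38 and 3.65.

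Clcn2 (ENSMUSG00000022843, chromosome 16, 20702964 to 20717746, minus strand) encodes ClC-2, an inwardly rectifying channel of the cell membrane. It had 2.17, 1.46 and 1.59 CPM on plate 1, from 52, 33 and 34 counts. On plate 2 it had 2.39, 0.0323 and 3.78 CPM, from 67, 1 and 138 counts in the libraries with the lowest, middle and highest total. The library with the middle total thus held the lowest value of this gene and the library with the highest total the highest. The mean was 1.9 ± 1.24 CPM over 6 libraries and 2.28 ± 0.926 CPM over the 5 others (SD). With limits set at the values of Clcn2 itself, of 12051 genes with at least 33 counts in each of the other 5 libraries, 3 genes (0.0249%) had at most 1 count there, namely Clcn2, Gm49384 and AC125110.1. In each of the other libraries 1 or 2 genes met the same description.

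The genes next to Clcn2 were read after this value had been seen. Fam131a lies on the opposite strand, and its 3′ end overlaps that of Clcn2 by 85 bases. It had 514, 519 and 425 counts on plate 1 and 605, 75 and 801 counts on plate 2, so its low library was the one in which Clcn2 was low. Polr2h, which encodes a subunit of RNA polymerases and overlaps the 5′ end of Clcn2 by 82 bases on the opposite strand, had 1230, 1031 and 1164 counts on plate 1 and 1027, 451 and 1104 on plate 2. Against the mean of the other plate 2 libraries, the middle library differed by -1.98 for Clcn2, -2.73 for Fam131a and -1.14 for Polr2h in log2(CPM + 1). For the 14 further neighbours, taken to 8 genes on either side, it differed by -0.61 to 0.68, and 6.08% of the 15669 genes tested differed by -1 or less. The strand setting of the counting is not given in the sources used here, and whether reads were shared between overlapping genes was not tested. Of the more abundant genes of the 9, Slc12a2, Slc12a5, Slc12a7, Clcn3 and Clcn4 differed there by -0.42 (Slc12a7) to 0.18 (Clcn3). Slc12a4 and Ano1 differed by -0.16 and -0.14, but their levels are too low for a difference as large as that of Clcn2 on this scale.

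**Figure D3:**
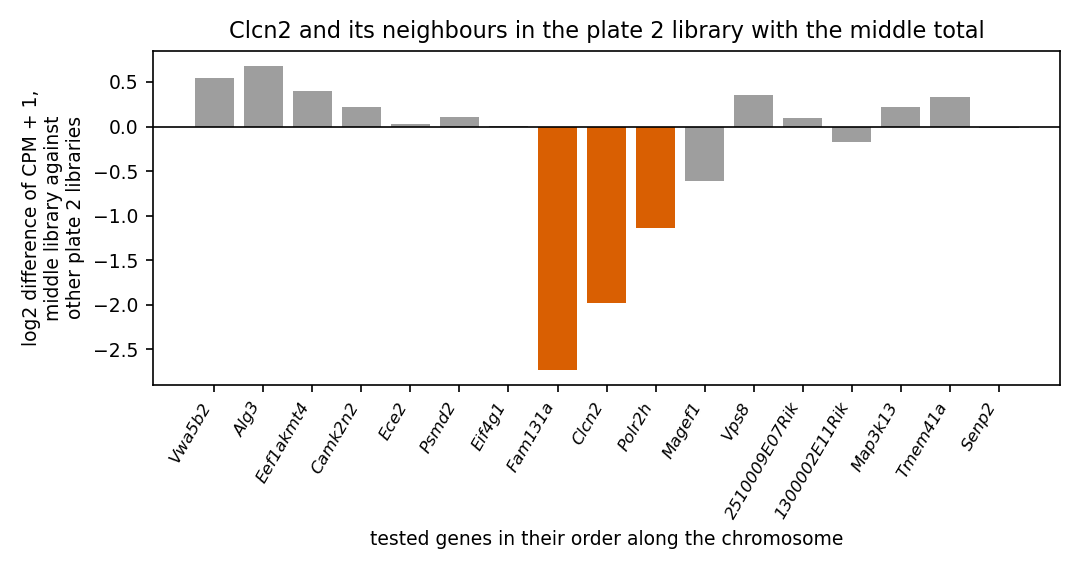
Difference in log2(CPM + 1) between the middle library of plate 2 and the mean of the other plate 2 libraries, for Clcn2 and 16 neighbouring tested genes in chromosomal order. Clcn2 and the genes that overlap it on either side (orange) differ by -1.14 to -2.73, and the further neighbours (grey) by -0.61 to 0.68.

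Ano1 (ENSMUSG00000031075, chromosome 7, 144588549 to 144751974, minus strand) encodes a calcium-activated chloride channel, and Cftr (ENSMUSG00000041301, chromosome 6, 18170687 to 18322768, plus strand) the cyclic AMP-dependent channel of intestinal epithelium. Ano1 had 0, 12 and 4 counts on plate 1 and 10, 13 and 28 counts on plate 2, or 0.377 ± 0.267 CPM (SD, n = 6). It was thus above 3 counts in 5 of 6 libraries and at 0 in plate 1 replicate 1. Cftr had 5 counts, 0.178 CPM, in the lowest library of plate 2 and 0 in the other 5. In those 5 libraries Cftr was not detectable at this depth, which allows up to 0.0822 to 0.14 CPM. Ano1 exceeded Cftr in 5 of 6, by a log2 difference of 0.40 ± 0.30 (SD, n = 6; exact permutation test, p = 0.0625, adjusted p = 0.07031). Both were at 0 in plate 1 replicate 1, so 0.0625 was the smallest p this pair allowed, and the size was set by the pseudocount, with 1.73 at 0.1 CPM and 0.09 at 5 CPM.

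The window of the Cftr start is shown as that of the gene with the fewest counts of the 9. It was 71.3% GC, with 31 CpG and 5 GC boxes, against a median of 7 CpG in all windows, and the Ano1 window was 71.7% GC. It runs 5′ to 3′ on the plus strand at chr6:18170437-18170716 of GRCm38.p6, from RefSeq, with the GC boxes in capitals.
Cftr: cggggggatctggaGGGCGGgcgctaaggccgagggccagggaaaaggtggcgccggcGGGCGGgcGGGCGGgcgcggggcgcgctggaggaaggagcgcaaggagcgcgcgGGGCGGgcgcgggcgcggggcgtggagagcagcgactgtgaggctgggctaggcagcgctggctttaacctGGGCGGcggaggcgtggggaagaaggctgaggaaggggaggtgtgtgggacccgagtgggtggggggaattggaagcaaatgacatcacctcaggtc
The window has no TGACGTCA, which says only that these letters are not in it.

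All pairs among the 9 genes, 36 in number, were compared within each library as the log2 ratio of CPM + 1. Since the efficiency of 3′ capture may differ between genes, the test asks only whether an order of counted transcripts repeats over libraries. In 30 of the 36 pairs the same gene was higher in 6 of 6 libraries, and these passed the exact sign-flip permutation test at the smallest p that 6 libraries allow, 0.03125, or 0.0375 after adjustment. For Clcn2 over Cftr this rested, in the middle library of plate 2, on 1 count against 0. Both lie under the limit of 3 counts, so that library does not order this pair. Slc12a2 exceeded Slc12a5 by 2.58 ± 0.30 on the log2 scale, Slc12a7 by 2.68 ± 0.25 and Slc12a4 by 4.32 ± 0.22 (SD, n = 6). The sizes depend on the pseudocount, and that against Slc12a4 was 5.02 with 0.1 CPM and 2.99 with 5 CPM. The 6 pairs that did not pass were Clcn4 with Clcn3, Clcn3 with Slc12a2, Slc12a5 with Slc12a7, Clcn2 with Slc12a4, Clcn2 with Ano1, and Ano1 with Cftr. Of these, Clcn2 against Slc12a4 rested on 1 library: the mean log2 ratio was 0.18 ± 0.75 (SD, n = 6; exact permutation test, p = 0.5625), and 0.48 with Clcn2 higher in 5 of 5 libraries without the middle library of plate 2. Clcn2 against Ano1 was 0.96 ± 0.77 (SD, n = 6; exact permutation test, p = 0.0625) and 1.25 without that library. Slc12a5 against Slc12a7 was reversed only in plate 1 replicate 2, and its mean was 0.21 without that replicate. Clcn3 against Slc12a2 was reversed only in the highest library of plate 2, and its mean was 0.28 without it. Pairs with the same gene higher in every library numbered 30, and 30 to 32 when a library was left out. The 9 genes therefore fell into a top group of Clcn4, Clcn3 and Slc12a2, a middle group of Slc12a5 and Slc12a7, and a low group of Clcn2, Slc12a4, Ano1 and Cftr, and each gene of a higher group exceeded each gene of a lower group in every library.

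Between the plates, none of the 8 genes that could be tested passed an adjusted p of 0.05 in edgeR's quasi-likelihood test with TMM scaling, where 29 of 15669 genes, 0.185%, were called. Cftr fell under the filter on low counts. DESeq2, which called 4.41% of the genes it tested, and limma-voom, which called 0.191%, also called 0 of the 8, although DESeq2 gave Ano1 no adjusted p. At an unadjusted p under 0.05 edgeR had 2 of the 8, Slc12a5 and Clcn4, where 16.1% of all tested genes had such a value. The log2 fold change of plate 2 against plate 1 was above 0 in 6 of the 8 and in 54.1% of all genes, with a median of 0.36 in the 8 and 0.03 in all genes. For Slc12a5 it was 0.69 (SE 0.24, 95% interval 0.15 to 1.23, edgeR adjusted p = 0.2068), and for Clcn4 0.28 (SE 0.12, 95% interval 0.01 to 0.54, edgeR adjusted p = 0.3007). The remaining cotransporter genes were above 0 with intervals that included it: Slc12a2 at 0.18 (SE 0.13), Slc12a4 at 0.52 (SE 0.32) and Slc12a7 at 0.44 (SE 0.21). Clcn3 was at -0.06 (SE 0.13) and Clcn2 at -0.02 (SE 1.07), the latter with a 95% interval of -2.68 to 2.64 and the low library within plate 2. Clcn2 was at 0.52 without that low library, -0.82 without the highest library of plate 2 and -1.37 by limma-voom. Ano1, at 0.84 (SE 0.89), had an interval of -1.17 to 2.86, and was at 0.24 without plate 1 replicate 1, 2.24 without plate 1 replicate 2 and 1.73 by limma-voom.

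Slc12a5 passed under 2 of the alternatives. Without the middle library of plate 2 its log2 fold change was 0.75 (edgeR adjusted p = 0.04338), in a comparison in which 12.0% of all tested genes were called. Without scaling beyond the library total it was 0.95 (edgeR adjusted p = 0.04661), Clcn4 was at 0.54 (edgeR adjusted p = 0.03615), and Clcn2 and Clcn3 turned to 0.26 and 0.21, but there the median of all genes moved to 0.30 and 9.46% of them were called. Over the alternatives run, the adjusted p of Slc12a5 lay between 0.04338 and 0.5292 and that of Clcn4 between 0.03615 and 0.6655. In unscaled CPM, 5 of the 9 genes, Slc12a2, Slc12a4, Slc12a5, Slc12a7 and Clcn4, had each plate 2 library above each plate 1 library, as did 35.2% of the tested genes. In TMM-scaled CPM these were 3, Slc12a4, Slc12a5 and Clcn4, where the share over all tested genes was 12.8%.

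**Figure D4:**
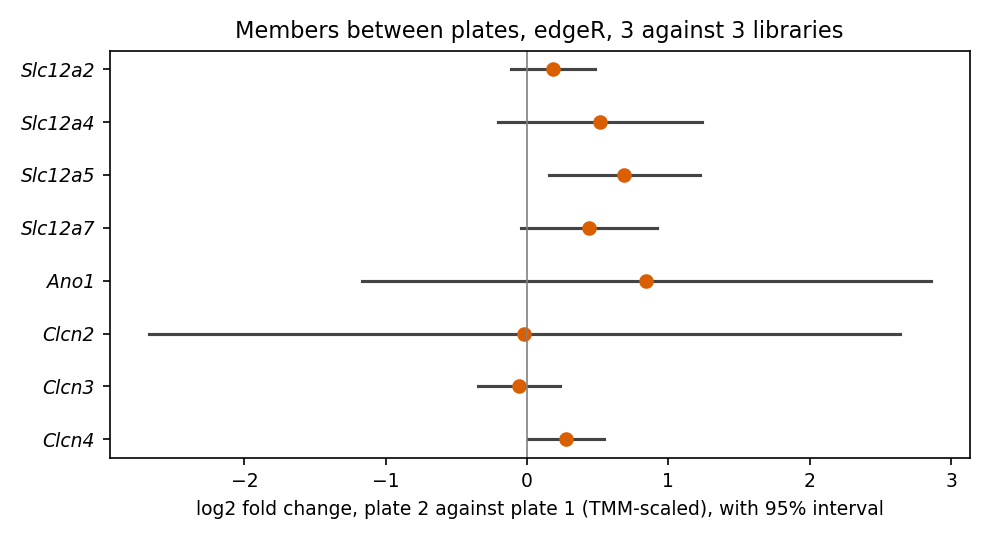
Log2 fold change of plate 2 (3 libraries) against plate 1 (3 libraries) for the 8 tested genes, from edgeR with TMM scaling, with 95% intervals as lines. The intervals of Slc12a5 and Clcn4 lie above 0 before adjustment, those of Ano1 and Clcn2 are the widest, and no gene passed after adjustment.

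The proteins that act with these genes were read from lists of related genes, by how many of each list were above 3 counts in every library, with the 2 genes of highest mean named. The cotransporters are switched by WNK kinases through the kinases SPAK (Stk39) and OSR1 (Oxsr1), whose phosphorylation activates NKCC1 and inhibits the KCC proteins. All 8 genes of this list were above 3 counts in every library, led by Wnk1 at 289 ± 33.7 CPM and Cab39, the gene for an adaptor of SPAK and OSR1, at 74.1 ± 18.7 CPM (SD, n = 6). Of 4 further Slc12 genes 2 were, Slc12a9 at 21.1 ± 5.92 CPM (SD, n = 6) and Slc12a1 with the low level given above. The sodium pump makes the sodium gradient on which NKCC1 runs, and 5 of the 6 genes listed for it were above 3 counts in every library, led by the beta subunit genes Atp1b1 at 121 ± 28.5 CPM and Atp1b3 at 66.3 ± 15.9 CPM (SD, n = 6).

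Among other anion pathways, 4 of 6 further CLC genes and partners were above 3 counts in every library. Ostm1, the partner subunit of the lysosomal ClC-7, had 46.7 ± 10.5 CPM and Clcn6 had 20.8 ± 6.3 CPM (SD, n = 6). Clcn1, known from muscle, and Bsnd, known from kidney, had means under 1 CPM. Of 9 further anoctamins 5 were above 3 counts in every library, led by Ano6, a lipid scramblase, at 28.2 ± 1.32 CPM and Ano8 at 12.5 ± 5.15 CPM (SD, n = 6), against 0.377 CPM for Ano1, while Ano2 and Ano5 were at 0 counts in all 6 libraries. Of the 3 bestrophin genes, which encode calcium-activated chloride channels, none was above 3 counts in every library, and Best1 and Best3 had 0.0509 and 0.032 CPM. The volume-regulated channel is built from Lrrc8 subunits, and all 6 genes of the list of volume-regulated and acid-activated channels were above 3 counts in every library, led by Lrrc8b at 48.4 ± 13.5 CPM and Lrrc8a at 13.6 ± 1.96 CPM (SD, n = 6). Of 14 anion exchanger genes 8 were, led by Slc4a8 at 31.9 ± 12.8 CPM and Slc26a2 at 22.1 ± 3.37 CPM (SD, n = 6), and the exchangers of the colon surface and red cell, Slc26a3 and Slc4a1, had 0.0173 CPM and 0 counts. Of the 4 genes for scaffolds that bind CFTR 3 were, with Ezr at 76.8 ± 22.3 CPM and Slc9a3r1 at 41.1 ± 3.68 CPM (SD, n = 6), although Cftr itself was counted in 1 library.

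The receptors whose response depends on this gradient were counted too. Of 22 GABA-A and glycine receptor subunit genes listed 12 were above 3 counts in every library, led by Gabra4 at 42.0 ± 8.76 CPM and Gabra3 at 27.7 ± 9.68 CPM (SD, n = 6). Gabra6, Gabrr3 and Glra1 had 0 counts in all 6 libraries. Since KCC2 is best known from neurons, the 5 neuronal markers are given beside it: 4 were above 1 CPM, from Map2 at 241 ± 21.5 CPM to Tubb3 at 44.1 ± 4.01 CPM, and Rbfox3, which marks mature neurons, had 0.328 ± 0.144 CPM (SD, n = 6). The summed level of these markers was 450.9 to 483.2 CPM on plate 1 and 513.3 to 590.3 CPM on plate 2 in unscaled CPM. With TMM scaling, 1 of the 4 tested markers had a log2 fold change above 0 and their median was -0.05. Whether these markers have any part in the level of Slc12a5 was not tested. Of the marker lists of goblet cells, fibroblasts and leukocytes, the only genes with means above 1 CPM were Spink4 at 6.04 ± 1.51 CPM and Col1a2 at 5.87 ± 0.932 CPM (SD, n = 6).

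Between the plates, 55 of the 82 genes in these related lists could be tested and 0 passed in edgeR and in limma-voom, with 11 at an unadjusted p under 0.05 in each, beside the 16.1% of all genes in edgeR. DESeq2 called 5, namely Ano9, Gabrq, Oxsr1, Slc26a4 and Slc4a8, beside 4.41% of all genes. With edgeR 7 of 56 tested passed without the middle library of plate 2 (12.0% of all genes), 6 of 75 without a filter on low counts (2.02%) and 12 of 55 without scaling beyond the total (9.46%). The smallest edgeR adjusted p in these lists was that of Slc26a4, 0.08927.

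**Figure D5:**
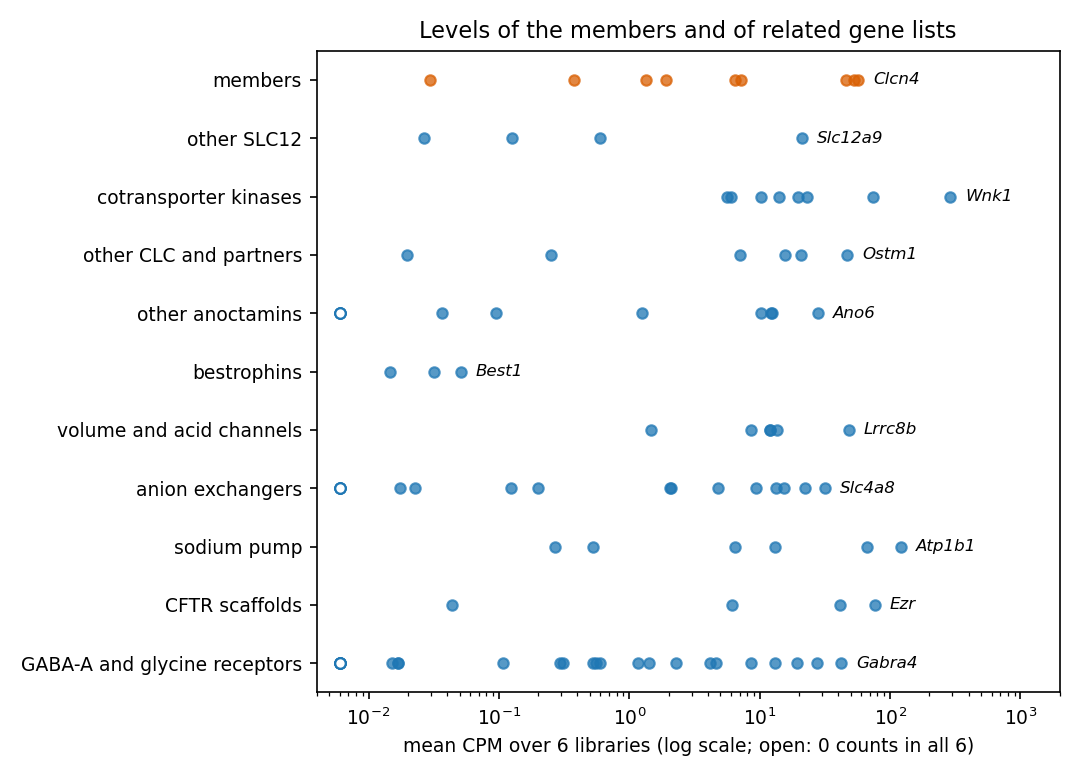
Mean CPM over 6 libraries, on a logarithmic axis, of the 9 genes (orange, top row) and of each gene in the related lists (blue), with the highest gene of each row named and genes at 0 counts in all 6 libraries as open symbols. The top row runs from 0.0297 CPM (Cftr) to 57.1 CPM (Clcn4), and each bestrophin lies under 0.1 CPM.

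The genes whose CPM followed each of these genes most closely were sought among those with a mean of at least 5 CPM, for the 6 genes with at least 10 counts in every library. The closest were Telo2 for Slc12a2 (Pearson's r = 0.9987), Fbxo3 for Slc12a4 (0.9982), Cpsf4 for Slc12a5 (0.9994), Ago1 for Slc12a7 (0.9977), Ogfr for Clcn3 (0.9956) and Ist1 for Clcn4 (0.9986). These are descriptions over 6 libraries that share plate, depth and scaling. With r above 0.9 there were from 3.36% of the genes searched (Clcn3) to 13.2% (Clcn4).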

How the data were processed

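GLUTag mRNA was isolated with oligo-dT beads and made into QuantSeq 3′ FWD libraries by the authors. Per their methods and processing notes, reads were trimmed with Trim Galore (0.6.4), assigned by Salmon (1.5.1) to GENCODE transcripts of GRCm38 with genome decoys and no length correction, and summed to genes with Tximeta. No normalization was applied, and the deposited unit is expected counts. The strand setting is not given in the sources used here.

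Of 54281 identifiers, 54107 were named from the annotation after removing version suffixes. Gene positions, overlaps and neighbours were read from an earlier GENCODE release than the one the authors name in their methods. CPM used unrounded values and a pseudocount of 1 CPM on the log2 scale, and counts were rounded for edgeR (4.0.16; TMM, filterByExpr, robust quasi-likelihood) and DESeq2 (1.42.0). limma-voom (3.58.1), other scalings, filters and pseudocounts and the omission of each library were alternatives. Pairs of genes were tested by exact two-sided sign-flip permutation with Benjamini-Hochberg adjustment over 36 pairs. All adjusted p-values between plates are over all tested genes, and SE is the fold change over the root of F. The fitting steps of the plate comparison were also run on simulated counts. These held genes changed on purpose and no effect shared by the wells of a plate, so they do not test the design. R 4.3.3 and Python 3.11.15 were used. No column was left out.

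The 9 genes and all lists were chosen with earlier results of these data known. Named are the 9 genes, Slc12a1 and Slc12a3, the 2 highest genes of each list, any listed gene called between plates, and the closest gene in pattern. Some genes first listed are not reported here, so the lists, the sum of outward cotransporters and the choice of the 2 highest genes are without them. Genes of the lists named beyond this, the promoter motifs and the neighbours of Clcn2 were chosen after their values were seen.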

Additional observations from a re-analysis of the deposited data

Results flagged for a closer look

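In 4 of 32 sets of 6 library values examined, 1 library lay far from the other 5 by Dixon's ratio, and chance gives about 1 in 20 where values are not mostly 0. Cftr and Best3 were picked out because the other 5 values were 0, for which any count gives the largest ratio, and so do not bear on that share. Cftr was at 0.178 CPM, from 5 counts, in the lowest library of plate 2 and at 0 in the others. Best3 was at 0.192 CPM, from 7 counts, in the highest library of plate 2 and at 0 in the others. In the middle library of plate 2, Ano8 was at 22.6 CPM against 8.17 to 12.4 in the others, and its mean was 10.5 without that library. Gabra3 was at 46.2 CPM in the same library against 20.4 to 29.2 in the others, with a mean of 24.0 without it and 27.7 with it.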

How the results depend on the processing

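The order of each of the 36 pairs of genes kept its direction with TMM-scaled CPM, with a pseudocount of 0.1 or 5 CPM and without each library, except that Clcn2 against Slc12a4 was at 0.0 with 0.1 CPM. The sizes for low genes depended on the pseudocount: with 0.1 and 5 CPM, Slc12a2 against Slc12a4 was 5.02 and 2.99 (4.32 with 1 CPM), Slc12a2 against Slc12a5 2.74 and 2.08 (2.58), Slc12a2 against Slc12a7 2.85 and 2.16 (2.68), Ano1 against Cftr 1.73 and 0.09 (0.40), Clcn2 against Ano1 1.83 and 0.34 (0.96), Slc12a5 against Slc12a4 2.28 and 0.91 (1.74) and Slc12a7 against Slc12a4 2.17 and 0.83 (1.64). With 5 libraries the smallest exact permutation p is 0.0625, so no pair could pass. The ratio of Slc12a2 to the sum of Slc12a4, Slc12a5 and Slc12a7 was 3.22, and 3.13 to 3.39 without each library. Between plates, edgeR called 29 genes (2 higher on plate 2, 27 lower), 1482 without scaling beyond the total (1411 higher, 71 lower), 545 without a filter (255 and 290) and 0 to 1911 when a library was left out. DESeq2 called 584 (157 and 427). The count was 0 without plate 1 replicate 1 (1611 at an unadjusted p under 0.05) and without the lowest library of plate 2 (2121), 2 and 6 without plate 1 replicates 2 and 3, 9 without the highest library of plate 2, and 1911 without the middle one. Without scaling beyond the total, the log2 fold changes were 0.95 for Slc12a5, 0.54 for Clcn4, 0.26 for Clcn2 and 0.21 for Clcn3. In that setting Slc12a2 was at 0.45, Slc12a7 at 0.71, Slc12a4 at 0.78 and Ano1 at 1.12, beside a median of 0.30 over all genes. Leaving out each library gave 0.47 to 0.85 for Slc12a5 (0.75 without the middle library), 0.20 to 0.32 for Clcn4, -0.82 to 0.52 for Clcn2, -0.16 to 0.02 for Clcn3, 0.24 to 2.24 for Ano1 (the extremes without plate 1 replicates 1 and 2), 0.09 to 0.27 for Slc12a2 (0.09 without the middle library), 0.29 to 0.56 for Slc12a7 and 0.40 to 0.68 for Slc12a4. By limma-voom, Ano1 was at 1.73 and Clcn2 at -1.37. The cause was not tested. No paired analysis was run, because no label ties a replicate of plate 1 to a replicate of plate 2. The labels number replicates 1 to 3 on plate 1 and 4 to 6 on plate 2. The column headings of plate 2 count from 1 within the plate and could not be tied to those numbers. Depth limited what could be said of Ano1 and Cftr.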
